A study of Mus musculus with 16 samples.

Results

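The guide arms of the mouse let-7 family are 9 mature miRNAs, mmu-let-7a-5p, mmu-let-7b-5p, mmu-let-7c-5p, mmu-let-7d-5p, mmu-let-7e-5p, mmu-let-7f-5p, mmu-let-7g-5p, mmu-let-7i-5p and mmu-miR-98-5p, given below without the species prefix. They were taken by name from the 1167 mature miRNAs with counts, and all 9 were among the 449 that passed the low-count filter and were tested. The cells were 3T9 fibroblasts, an immortalised line grown from mouse embryos. Every culture, the 0 h ones included, had spent 72 h without serum, and all but those then received complete medium with 10% fetal bovine serum for 1, 2, 4, 6, 8, 10 or 12 h. Each of the 8 times had 2 small RNA libraries, replicate 1 and replicate 2, which come from separate biological experiments according to the series' design text. The comparison addresses how miRNAs are regulated when resting fibroblasts are given serum.

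The let-7 miRNAs repress growth-promoting mRNAs, among them those of Ras proteins, Myc and Hmga2, and they accumulate as cells differentiate. All members share the seed, the bases of the guide strand that pair with target sites first. LIN28 proteins block the maturation of let-7 precursors in embryonic cells, and terminal uridylyltransferases add U to those precursors. Mature miRNAs can also gain untemplated A or U at the 3′ end or lose bases there, and such variants are read here as separate sequence classes.

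The 9 mature sequences below (RefSeq, GRCm38.p6) are shown because all comparisons between paralogs rest on the few bases in which they differ. Capitals mark the seed, bases 2 to 8.
let-7a-5p: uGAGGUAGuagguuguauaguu
let-7b-5p: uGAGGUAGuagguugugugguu
let-7c-5p: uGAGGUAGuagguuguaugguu
let-7d-5p: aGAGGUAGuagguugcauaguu
let-7e-5p: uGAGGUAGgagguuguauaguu
let-7f-5p: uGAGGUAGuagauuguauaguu
let-7g-5p: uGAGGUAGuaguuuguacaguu
let-7i-5p: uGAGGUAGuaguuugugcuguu
miR-98-5p: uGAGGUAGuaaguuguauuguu
Every member was 22 bases long with the same seed. Counted from 1 at the 5′ end, and with the let-7a-5p base first, let-7c-5p differed only by A19G, let-7e-5p by U9G and let-7f-5p by G12A. The changes were A17G and A19G in let-7b-5p, U1A and U16C in let-7d-5p, G12U and U18C in let-7g-5p, and G11A and A19U in miR-98-5p. let-7i-5p was the most distant from let-7a-5p, with G12U, A17G, U18C and A19U. Once 4 bases are lost from the 3′ end, let-7a-5p and let-7c-5p read the same. Once 6 are lost, let-7b-5p and let-7c-5p do, as do let-7g-5p and let-7i-5p. How the authors assigned such reads is not given in the sources used here, so trimmed counts of these paralogs are uncertain.

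The family comes from 12 hairpins (RefSeq, GRCm38.p6; overlaps from GENCODE vM21). The hairpin of let-7i-5p, at chr10:122985640-122985724 on the minus strand, overlapped an exon of the transcribed pseudogene D630033A02Rik. That of let-7b-5p, at chr15:85707319-85707403 on the plus strand, lay 621 bases downstream of Mirlet7c-2 at chr15:85706603-85706697, and both overlapped exons of the noncoding RNA Lncppara. The second let-7c-5p hairpin, Mirlet7c-1, lay in an intron of Mir99ahg at chr16:77599657-77599750, with Mir99a as neighbour. Mirlet7d, Mirlet7f-1 and Mirlet7a-1 overlapped exons of the lincRNA 6720427I07Rik at chr13:48536012-48538272 on the minus strand. Introns of protein-coding genes held Mirlet7e (Spaca6, chr17:17830352-17830444), Mirlet7g (Wdr82, chr9:106178840-106178927), and Mirlet7f-2 with Mir98 (Huwe1, chrX:151912346-151913321). Mirlet7a-2 lay at chr9:41536716-41536811 in introns of the noncoding genes 3110039I08Rik and Gm49317. let-7a-5p, let-7c-5p and let-7f-5p each come from 2 hairpins, whose contributions the mature reads do not separate.

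Libraries held 5852087 to 7783249 miRNA reads. Levels are given as CPM, read counts normalised to library depth with scaling factors of the TMM method. All 6 fibroblast and mesenchyme miRNAs on a marker list were present, and they summed to 180549 to 269093 CPM, with means of 256726 CPM at 12 h and 209734 CPM at 0 h. The 6 blood and serum miRNAs summed to 0.299 to 2.20 CPM, with means of 1.25 CPM at 12 h and 1.31 CPM at 0 h and with no reads counted for miR-486-5p, miR-142-3p and miR-142-5p, and the 5 epithelial ones to 0.885 to 2.42 CPM. Neural markers summed to 178 to 359 CPM, with 207 CPM at 12 h and 251 CPM at 0 h on average. Of this, miR-128-3p had 174 to 352 CPM and miR-9-5p 3.92 to 10.4 CPM, with no reads for miR-124-3p. The pluripotent ones summed to at most 0.678 CPM. The file headers give replicate 1 libraries the code S7549 and replicate 2 libraries the code S7548. These codes are read here as sequencing runs, and therefore run and experiment cannot be told apart.

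The let-7 guide arms together took 8.01% to 11.2% of the miRNA reads of a library. Their summed level was 90235 and 99518 CPM at 12 h, against 84181 and 82318 CPM at 0 h. Replicate 2 of 2 h and of 10 h stood highest, at 109498 and 111806 CPM, while the replicate 1 libraries of those times had 93317 and 90186 CPM. The members kept a nearly fixed order of abundance. let-7f-5p led at 39995 ± 4837 CPM (SD over 16 libraries), followed by let-7i-5p (19957 ± 2241 CPM), let-7a-5p (10998 ± 1333 CPM) and let-7c-5p (7836 ± 1098 CPM). Each of these exceeded the next in 16 of 16 libraries. let-7e-5p (3578 ± 491 CPM) and let-7g-5p (3490 ± 709 CPM) did not differ beyond their spread, with let-7e-5p above in 11 of 16 libraries. let-7d-5p (2696 ± 293 CPM), let-7b-5p (1702 ± 312 CPM) and miR-98-5p (1291 ± 166 CPM) closed the order, with let-7g-5p above let-7d-5p and let-7b-5p above miR-98-5p in 15 of 16 libraries each. Because all members have the same length, CPM values compare them per length, although ligation in library preparation favours some RNA ends over others.

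After 12 h of serum, 2 of the 9 members differed from 0 h in level, in opposite directions. let-7b-5p had 1276 and 1274 CPM at 12 h, against 1934 and 2176 CPM at 0 h, and both 12 h libraries lay below both 0 h libraries. The fitted log2 change was -0.69 with an SE of 0.18 (adjusted p = 0.0165), from edgeR's quasi-likelihood F-test adjusted by Benjamini-Hochberg over 449 miRNAs, as in the level tests that follow. let-7i-5p had 23082 and 22885 CPM at 12 h, against 16874 and 17446 CPM at 0 h, again without overlap. Its log2 level rose by 0.42 (SE 0.10, adjusted p = 0.0102). In bulk RNA, fewer cells of a type and less RNA per cell cannot be told apart. Among all tested miRNAs, 14.3% were called at 12 h, 8.24% upward and 6.01% downward, so 2 of 9 is near that background. Both calls were lost when either 12 h or either 0 h library was left out, with values of -0.74 to -0.60 for let-7b-5p and 0.43 to 0.48 for let-7i-5p over all libraries left out in turn. With scaling on total counts, which shifted the median 12 h change of all miRNAs to -0.15, let-7i-5p was at 0.26 (adjusted p = 0.128) and its trend at 0.0170 per hour (adjusted p = 0.0529).

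**Figure D1:**
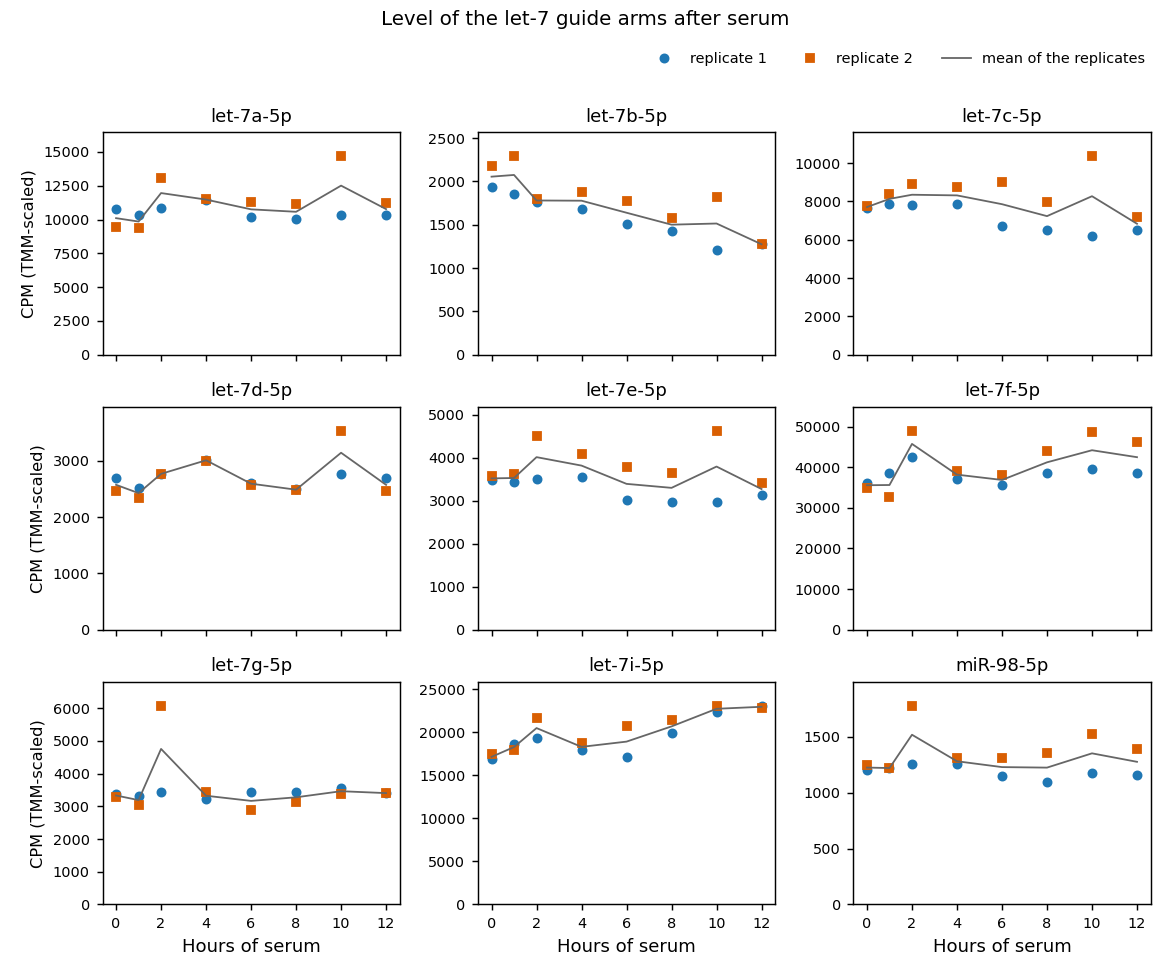
Level of each let-7 guide arm (CPM on TMM-scaled totals, vertical axis from 0) against hours of serum, with a point for each library and a line through the mean of the 2 replicates. let-7b-5p declines to 1276 and 1274 CPM at 12 h, let-7i-5p ends at 23082 and 22885 CPM, and let-7g-5p has a single high library at 2 h.

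The course of both miRNAs was gradual. let-7b-5p averaged 2055, 2075, 1780, 1778, 1639, 1501, 1514 and 1275 CPM at 0, 1, 2, 4, 6, 8, 10 and 12 h. Its log2 level changed by -0.0528 per hour (SE 0.00944, adjusted p = 0.00037). Within replicate 1 alone the slope was -0.0548 (adjusted p = 0.000104) and within replicate 2 alone -0.0494 (adjusted p = 0.0368). The averages of let-7i-5p over the same times were 17160, 18302, 20508, 18322, 18933, 20702, 22749 and 22983 CPM. The slope of let-7i-5p was 0.0302 per hour (SE 0.00628, adjusted p = 0.00159), with 0.0320 within replicate 1 (adjusted p = 0.0197) and 0.0297 within replicate 2 (adjusted p = 0.0591). Over all tested miRNAs 25.2% had a called trend, 12% upward and 13.1% downward, against these 2 of 9 members. At 10 h let-7i-5p was already higher than at 0 h (log2 change 0.41, SE 0.10, adjusted p = 0.0143), in a comparison that called 11.8% of all miRNAs, with 7.13% called upward. With the replicate number as a block, let-7b-5p was also called at 8 h (-0.45, adjusted p = 0.0162) and 10 h (-0.46, adjusted p = 0.0129), and let-7i-5p at 8 h (0.27, adjusted p = 0.0342), against 18% and 18.7% of all miRNAs at 8 and 10 h. The test of any change over the course called let-7i-5p (adjusted p = 0.0483) and not let-7b-5p (adjusted p = 0.103), which the block called (adjusted p = 0.00376). It called 13.8% of all miRNAs without the block and 24.5% with it. At 1, 2, 4, 6 and 8 h edgeR called 0 of 9 members without the block (0, 3, 0, 0 and 2 at an unadjusted p under 0.05), against 0.445%, 2.45%, 7.57%, 7.8% and 9.58% of all miRNAs.

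The other 7 guide arms were called at no time and not in the trend over both replicates. Within replicate 1 alone, where 22.6% of all miRNAs had a called trend, let-7c-5p fell (slope -0.0287, adjusted p = 0.00801), whereas its slope was 0.00217 within replicate 2 alone (adjusted p = 0.947), where 13.1% were called. let-7f-5p, the most abundant member, had 38685 and 46294 CPM at 12 h, against 36241 and 34920 CPM at 0 h (log2 change 0.26, SE 0.13, adjusted p = 0.209). let-7c-5p, from the cluster it shares with let-7b-5p and from the Mir99a locus, had 6504 and 7164 CPM at 12 h, against 7634 and 7774 CPM at 0 h (-0.17, SE 0.20, adjusted p = 0.621). Both 12 h libraries of let-7c-5p lay below both 0 h libraries, while its replicates at 10 h lay as far apart as 6185 and 10357 CPM. let-7a-5p (0.09, SE 0.15), let-7d-5p (-0.00034, SE 0.12), let-7e-5p (-0.11, SE 0.19), let-7g-5p (0.03, SE 0.19) and miR-98-5p (0.06, SE 0.18) changed by less than their SE in log2 level at 12 h. let-7g-5p had 3441 and 6074 CPM at 2 h and 2900 to 3552 CPM in the other 14 libraries, so its high 2 h mean came from replicate 2.

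**Figure D2:**
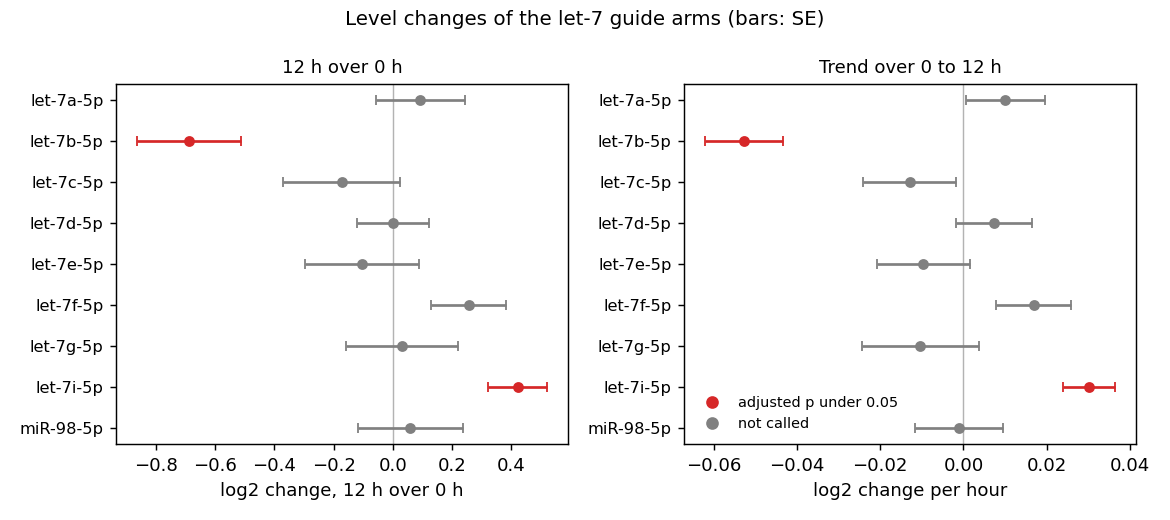
Log2 change in level of each let-7 guide arm at 12 h over 0 h (left) and per hour over the whole course (right), with the SE as bars. Red points passed an adjusted p of 0.05 in edgeR's test, which only let-7b-5p (-0.69 and -0.0528) and let-7i-5p (0.42 and 0.0302) did.

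Measured against the summed reads of the family, let-7b-5p lost share. It made up 1.41% and 1.28% of the family's reads at 12 h, against 2.30% and 2.64% at 0 h (log2 change -0.87, SE 0.17, adjusted p = 0.00287). The call did not hold when 12 h replicate 2 was left out, and the change was -0.97 to -0.77 with each library left out in turn. let-7i-5p made up 25.6% and 23.0% at 12 h, against 20.0% and 21.2% at 0 h (0.24, SE 0.12, adjusted p = 0.247). In the trend within the family, let-7b-5p (-0.0676 per hour, adjusted p = 0.000123), let-7c-5p (-0.0275, adjusted p = 0.0312) and let-7e-5p (-0.0234, adjusted p = 0.0423) fell. Neither the let-7c-5p nor the let-7e-5p call held without the low-count filter. The let-7c-5p call also ended when 1 of 6 libraries was left out (0 h, 1 h or 12 h replicate 2, or 8 h, 10 h or 12 h replicate 1; slopes -0.0330 to -0.0239 over all). The let-7e-5p call ended with any library left out but those of 2 h, 6 h replicate 2 and 10 h replicate 2 (-0.0276 to -0.0207). With the replicate block, let-7i-5p rose in the family trend as well (0.0177, adjusted p = 0.0364; 0.052 without the block), and let-7c-5p fell at 12 h (-0.36, adjusted p = 0.0396). Without the block, the let-7i-5p trend was also called for untrimmed reads alone (0.0191, adjusted p = 0.0338), when 1 h, 2 h or 10 h replicate 2 was left out (adjusted p = 0.0454, 0.0435 and 0.0251), and without replicate 2 of both 2 h and 10 h (0.0198, adjusted p = 0.0125). Set against the family total in the same way, the median over all tested miRNAs was itself -0.0136 per hour and -0.18 at 12 h. On that scale 23.2% of all miRNAs were called in the trend and 13.1% at 12 h, with 16.7% and 8.02% called downward. With the block these shares of all miRNAs were 28.5% in the trend and 24.1% at 12 h. Per let-7c-5p read, let-7b-5p had 0.196 and 0.178 reads at 12 h, against 0.253 and 0.280 at 0 h. The let-7c-5p reads come from the cluster shared with let-7b-5p and from Mirlet7c-1, so this is not a ratio within the cluster.

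Untemplated bases on trimmed or reference-class reads count in those classes, and the forms below are those of 3′-extended reads. The most frequent of these forms, on average over the libraries in each of the 9 members, was added A (A-form). Its share was higher at 12 h than at 0 h in both replicates for all 9 members, as for 64.8% of 159 testable miRNAs. let-7f-5p had A-form shares of 5.86% and 7.60% at 12 h, against 4.00% and 5.91% at 0 h. let-7a-5p had 4.84% and 6.89% at 12 h, against 3.31% and 4.87% at 0 h. In each of these pairs the larger value is that of replicate 2, and in all 9 members replicate 2 had the higher A-form share at 8 of 8 times. In 5 members every replicate 2 library lay above every replicate 1 library, as in 23.3% of all miRNAs. Without a block for the replicate number, edgeR called 0 of 9 members at 12 h and 0 in the trend (0 and 8 at an unadjusted p under 0.05, and 0 in both by limma on log2 odds), against 4.4% and 18.9% of all miRNAs called upward.

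With the replicate block, the A-form share rose in 8 of 9 members at 8, 10 and 12 h and in the trend. The number called was 0 at 1 h, 1 at 2 h, 3 at 4 h and 6 at 6 h. Of all testable miRNAs, 3.14%, 15.1%, 20.8%, 30.2% and 44.7% were called upward at 2, 4, 6, 8 and 10 h. Log2 odds at 12 h were 0.37 to 0.55 above those at 0 h in these 8 members, for example 0.55 in let-7a-5p (SE 0.07, adjusted p = 8.36e-09), 0.48 in let-7f-5p (SE 0.07, adjusted p = 4.47e-08) and 0.37 in let-7b-5p (SE 0.08, adjusted p = 5.88e-05). The blocked test called 41.5% of the 159 testable miRNAs upward at 12 h and 47.8% in the trend, so a rising A-form share was common outside the family too. The median log2 odds change at 12 h was 0.51 in the members and 0.37 over all testable miRNAs. Trends within replicate 1 alone and within replicate 2 alone each called 8 of 9 members, against 39.9% and 45.4% of all miRNAs in either direction. Leaving out any single library kept 8 members called at 12 h and 8 or 9 in the trend under the block.

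The exception was let-7i-5p, which carried the highest A-form share together with let-7b-5p. Under the block its trend was called only when 2 h replicate 2 was left out. let-7i-5p had 12.1% and 17.1% at 12 h, against 11.7% and 15.99% at 0 h (blocked log2 odds change 0.09, SE 0.06, adjusted p = 0.259). let-7b-5p had 13.5% and 18.0% at 12 h, against 10.7% and 14.6% at 0 h, so it lay above let-7i-5p at 12 h and below it at 0 h in both replicates. Averaged over the 16 libraries, let-7i-5p stood at 14.3% and let-7b-5p at 14.0%, with let-7i-5p above in 10 of 16 libraries, and the other 7 lay between 3.28% (let-7d-5p) and 6.19% (let-7g-5p). The difference itself was tested after the data had been seen, on log2 odds minus the mean log2 odds of the 9 members in the same library (limma, replicate block, adjusted over 159 miRNAs). let-7i-5p changed by -0.0324 per hour relative to that mean (SE 0.00329, adjusted p = 7.44e-06) and by -0.36 at 12 h (SE 0.06, adjusted p = 0.00454), and no other member was called. This test called 35.8% of all miRNAs in the trend and 22% at 12 h. Slopes of let-7i-5p were -0.0338 to -0.0309 with each library left out in turn.

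**Figure D3:**
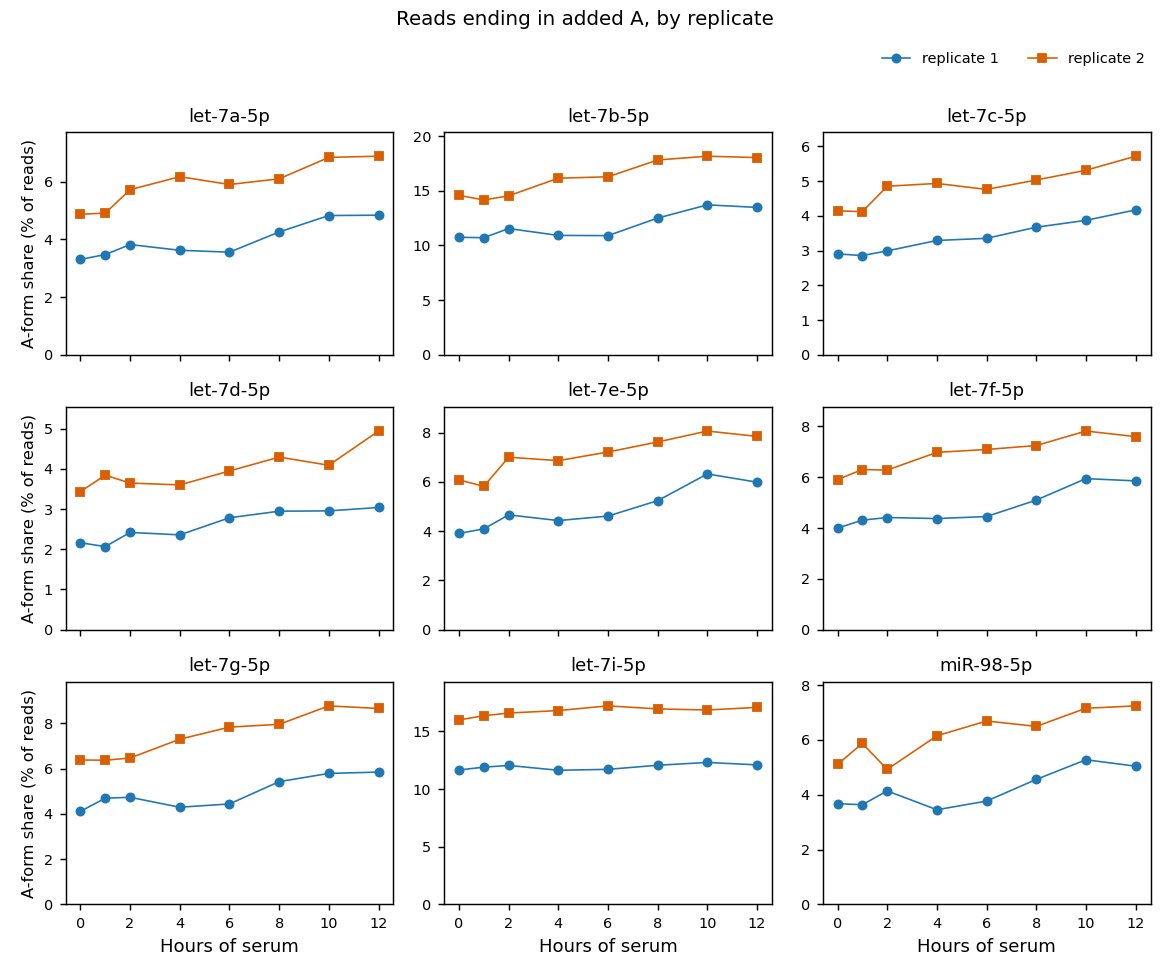
Share of the reads of each let-7 guide arm that are 3′-extended by untemplated A (vertical axis, percent, from 0) against hours of serum, with replicate 1 and replicate 2 as separate lines. Replicate 2 lies above replicate 1 at every time in all 9 panels, and both lines rise over the course in 8 panels, while let-7i-5p stays between 11.6% and 12.3% in replicate 1 and between 15.99% and 17.2% in replicate 2.

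3′-extended reads with untemplated C (C-form) separated the replicates the other way. let-7i-5p had 3.52% to 4.07% C-form reads in the 8 replicate 1 libraries and 0.0548% to 0.0683% in the 8 replicate 2 libraries. All 9 members were higher in every replicate 1 library than in any replicate 2 library, as were 63.2% of 87 miRNAs. C-form reads made up a median of 17.2% (let-7b-5p) to 25.8% (let-7g-5p) of A-form plus C-form reads in replicate 1 and 0.333% (miR-98-5p) to 3.20% (let-7d-5p) in replicate 2. When both forms were summed, an alternative added after seeing the data, let-7i-5p had 15.9% and 17.1% at 12 h, against 15.4% and 16.05% at 0 h. The replicates then lay closer (15.4% to 15.9% in replicate 1 and 16.05% to 17.3% in replicate 2). For let-7f-5p the sum was 7.81% and 7.72% at 12 h, against 5.36% and 6.01% at 0 h. Without any block, the summed share then rose in the trend in 8 of 9 members, again all but let-7i-5p (adjusted p = 0.382), with slopes of 0.0353 to 0.0464 log2 odds per hour in the 8. In that test 35.3% of 173 miRNAs were called upward. The 12 h libraries lay above the 0 h libraries without overlap in 8 of 9 members, as in 46.2% of all miRNAs. At 12 h the sum was called in let-7c-5p (0.49, adjusted p = 0.0487) and let-7f-5p (0.48, adjusted p = 0.0446), against 9.83% of all miRNAs upward. With the replicate block, the sum was called at 12 h in 8 of 9 members, all but let-7i-5p (adjusted p = 0.246), against 38.2% of all miRNAs upward. Why the replicates differ in C-form reads was not tested.

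Untemplated U on 3′-extended reads (U-form) was found in appreciable amounts in 4 members only. let-7e-5p averaged 5.64% ± 0.471 (SD over 16 libraries), let-7i-5p 3.60% ± 0.283, miR-98-5p 1.87% ± 0.209 and let-7b-5p 1.00% ± 0.186, each above the next in 16 of 16 libraries. The other 5 had at most 0.0720% in any library. In the hairpins of let-7e-5p, let-7i-5p and miR-98-5p the base after the mature 3′ end is G, whereas it is U in those of let-7a-5p, let-7b-5p, let-7c-5p, let-7d-5p and let-7g-5p. let-7f-5p has 1 hairpin of each kind. By the class names, an added base that equals the hairpin's next base is templated and not part of these forms, although let-7b-5p had U-form reads with U as its next base. 3′-extended reads with untemplated G (G-form) numbered 0 in let-7i-5p and miR-98-5p in all 16 libraries. The next base of both hairpins is G, so by the class names a first added G counts as templated there. A count of 0 allows up to 0.00251% and 0.0429% in any library, which holds for the G-form and not for all added G. let-7e-5p and let-7f-5p were near 0 too, with 12 and 8 G-form reads over all 16 libraries. let-7b-5p had the highest G-form share, 1.31% ± 0.212.

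Of the 5 members with enough U-form reads to test, edgeR called 0 without the block at 12 h and 0 in the trend (0 and 3 at an unadjusted p under 0.05, and 0 by limma on log2 odds), against 1.94% and 16.1% of 155 testable miRNAs. With the block, the U-form share of let-7b-5p (0.0345 log2 odds per hour, adjusted p = 0.0148) and let-7e-5p (0.0179, adjusted p = 0.00538) rose, while that of let-7i-5p fell (-0.0185, adjusted p = 0.00203). let-7i-5p had 3.47% and 3.21% U-form reads at 12 h, against 4.14% and 3.63% at 0 h, and let-7e-5p had 6.09% and 5.75% at 12 h, against 5.62% and 4.59% at 0 h. The blocked trend called 9.68% of all testable miRNAs upward and 21.3% downward. Within each replicate alone only let-7i-5p was called (adjusted p = 0.0306 and 0.0431), against 15.9% and 18.1% of all miRNAs. At 12 h the block called let-7e-5p (0.23, adjusted p = 0.0326) and let-7i-5p (-0.22, adjusted p = 0.0209), against 23.2% of all miRNAs. Without either 12 h library the count at 12 h was 0 under the block, and without either 0 h library it was 1, while the blocked trend kept a count of 3 with each library left out.

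Trimmed reads lack bases of the reference and include those with untemplated bases. They were most frequent in let-7e-5p (30.8% ± 0.999 over 16 libraries) and let-7d-5p (27.2% ± 0.905) and least frequent in let-7c-5p (11.5% ± 0.620) and let-7i-5p (9.44% ± 0.956). The 5 members between these averaged 15.6% to 19.0%, and let-7b-5p, let-7f-5p and let-7g-5p did not keep an order. Over time the trimmed shares of the paralogs moved in different directions. The trimmed share of let-7b-5p was 18.8% and 18.7% at 12 h, against 15.5% and 15.3% at 0 h, and that of let-7c-5p was 12.3% and 12.2% at 12 h, against 11.01% and 11.2% at 0 h. let-7i-5p instead had 8.09% and 8.89% at 12 h, against 9.98% and 10.6% at 0 h. let-7a-5p had 18.2% and 18.1% at 12 h, against 19.7% and 20.3% at 0 h, and miR-98-5p 13.8% and 14.9% at 12 h, against 17.1% and 15.9% at 0 h. In none of these 5 members did the 12 h and 0 h libraries overlap. let-7e-5p (30.9% and 30.4% at 12 h, against 32.0% and 31.5% at 0 h) and let-7g-5p (15.7% and 15.8% at 12 h, against 16.3% and 16.9% at 0 h) did not overlap either, so that 2 members lay above and 5 below. Among 277 testable miRNAs 28.5% lay above and 32.9% below without overlap.

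The trend in the trimmed share was called in these 5 members, upward in let-7b-5p (0.0312 log2 odds per hour, SE 0.00521, adjusted p = 8.55e-05) and let-7c-5p (0.0181, SE 0.00386, adjusted p = 0.000995). It was downward in let-7i-5p (-0.0308, SE 0.00565, adjusted p = 0.000212), let-7a-5p (-0.0145, SE 0.00366, adjusted p = 0.00451) and miR-98-5p (-0.0204, SE 0.00542, adjusted p = 0.00632). Of all testable miRNAs 19.5% were called upward and 18.1% downward. All 5 calls held with each library left out in turn. Within single replicates, let-7a-5p was not called in replicate 1 alone (-0.0119, adjusted p = 0.0898) and miR-98-5p not in replicate 2 alone (-0.0159, adjusted p = 0.189), where 24.7% and 23.4% of all miRNAs were called. Relative to the mean log2 odds of the members, the same 5 were called, let-7b-5p at 0.0348 (adjusted p = 1.72e-05), let-7c-5p at 0.0217 (adjusted p = 0.000254), let-7i-5p at -0.0272 (adjusted p = 0.000369), miR-98-5p at -0.0167 (adjusted p = 0.0145) and let-7a-5p at -0.0109 (adjusted p = 0.0228). That test, too, was added after the data had been seen, and it called 37.5% of all miRNAs. There the let-7a-5p call ended when replicate 2 of 1 h or of 12 h was left out, and the miR-98-5p call when 12 h replicate 1 was.

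At 12 h alone only let-7b-5p was called (log2 odds 0.35, SE 0.09, adjusted p = 0.0139), in a test that called 15.2% of all miRNAs. Leaving out either 12 h or either 0 h library ended that call, with values of 0.34 to 0.36. Without a filter on low counts let-7b-5p was not called (adjusted p = 0.0928) and let-7i-5p was (-0.31, adjusted p = 0.0165; 0.0591 with the filter). With at least 50 reads required, let-7i-5p was called beside let-7b-5p (adjusted p = 0.0472). With the block all 5 members were called at 12 h, against 30% of all miRNAs. With 1 library left out under the block, the calls at 12 h numbered 2 without either 0 h library, 3 without 12 h replicate 1, 4 without 12 h replicate 2 or either 1 h library, and 5 without any other library. The trend under the block kept a count of 5 members with each library left out. The level changes of let-7b-5p and let-7i-5p were as large with trimmed reads left out, at -0.70 (adjusted p = 0.0109) and 0.50 (adjusted p = 0.00376).

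**Figure D4:**
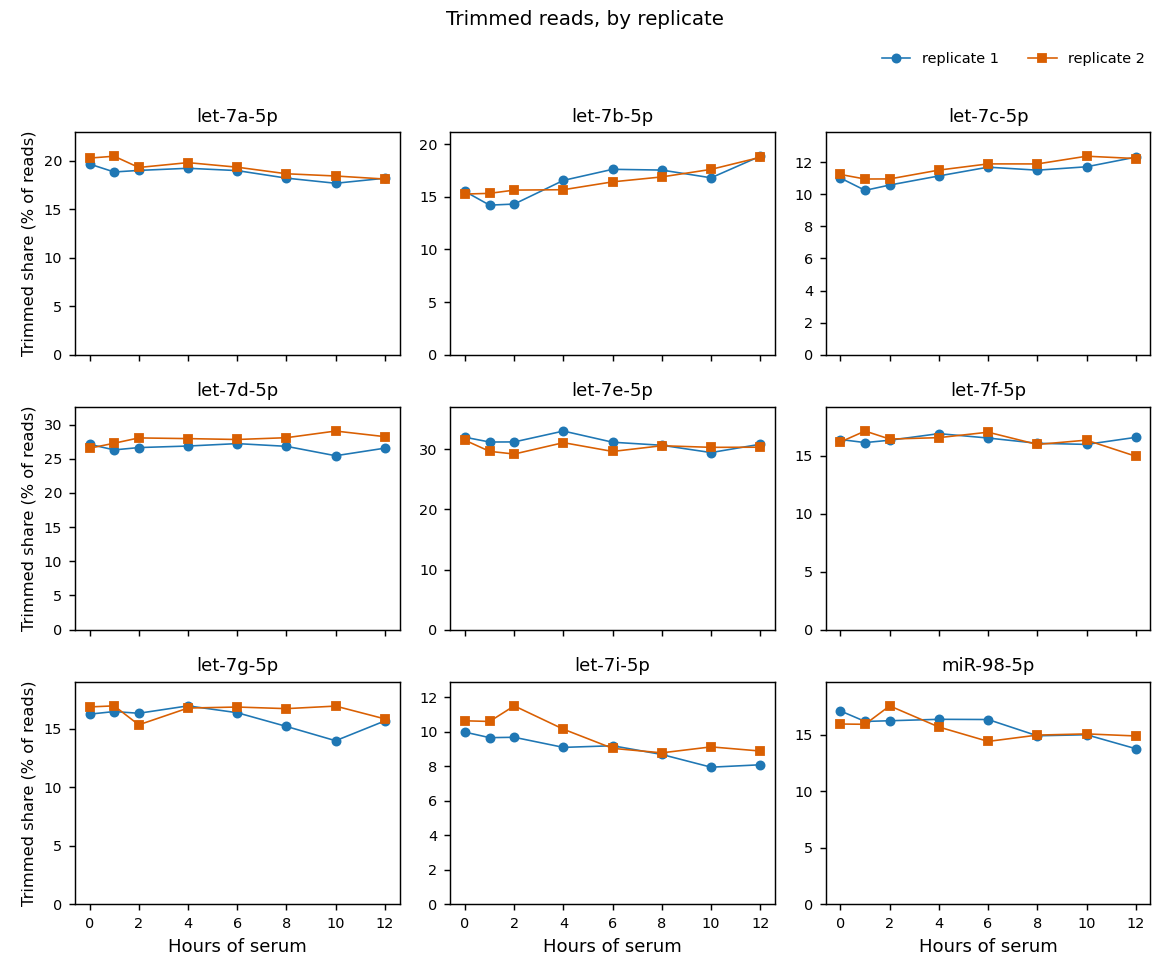
Share of the reads of each let-7 guide arm that are trimmed (vertical axis, percent, from 0) against hours of serum, with replicate 1 and replicate 2 as separate lines. The lines of let-7b-5p end at 18.8% and 18.7% after starting at 15.5% and 15.3%, whereas those of let-7i-5p end at 8.09% and 8.89% after starting at 9.98% and 10.6%.

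let-7b-5p differed from its relatives in make-up as well. Reads of the reference class, with or without untemplated bases, made up 35.9% to 52.1% of its reads in single libraries. In let-7c-5p, 1 base away, they made up 75.4% to 81.2%. Tails of more than 1 kind of base (mixed form) averaged 12.3% ± 2.54 in let-7b-5p over 16 libraries and 2.30% or less in each other member. They made up 16.1% and 15.9% of let-7b-5p reads at 12 h, against 10.4% and 8.56% at 0 h. The mixed share was higher at 12 h than at 0 h in both replicates of all 9 members, as in 57.9% of 164 miRNAs, and in 8 members the groups did not overlap (45.1% of all). let-7b-5p also had the most 3′ extension that matches the hairpin, 9.15% ± 0.814, while let-7i-5p had 0.208% ± 0.0276 and miR-98-5p 0.0826% ± 0.0420. Mixed and templated shares were not tested. The widest 95% Wilson interval of a share in a single library spanned 1.67 percentage points for the A-form, 0.711 for the U-form and 1.71 for trimmed reads, counting error only.

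**Figure D5:**
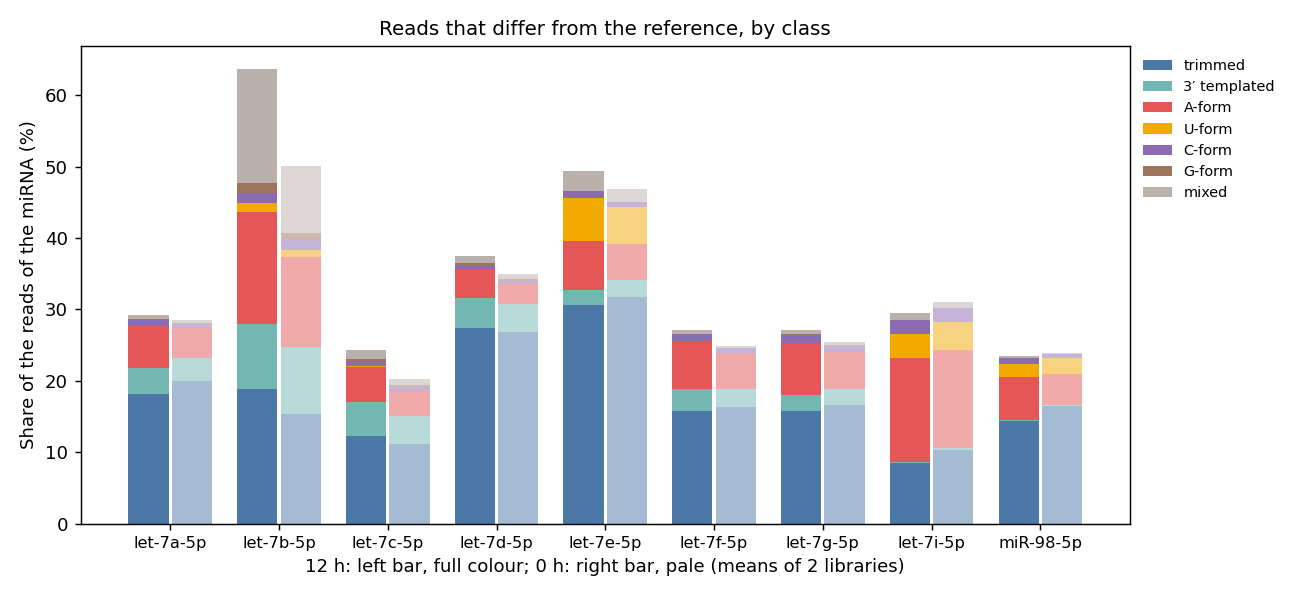
Share of the reads of each let-7 guide arm in each class other than the reference (stacked, percent, means of 2 libraries), with 12 h as the left, full-colour bar and 0 h as the right, pale bar. let-7b-5p has the tallest bars, with mixed tails of 16.03% at 12 h and 9.47% at 0 h, and let-7e-5p the largest trimmed and U-form parts.

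The hairpins of miR-99a-5p, miR-125a-5p and miR-100-5p lie 656, 367 and 5211 bases from Mirlet7c-1, Mirlet7e and Mirlet7a-2. miR-99b-5p and miR-125b-5p were taken as cluster partners by name, and no neighbouring hairpin was recorded for them here. These 5 miRNAs are not let-7 members. Of these 5, miR-125b-5p rose in the trend (0.0352 per hour, SE 0.00819, adjusted p = 0.00398) and the other 4 were not called there. Among all tested miRNAs 25.2% had a called trend, 12% upward. miR-125b-5p averaged 15698 ± 2762 CPM at 12 h and 12040 ± 994 CPM at 0 h (SD, n = 2 each). At 12 h miR-125b-5p was called with the block only (0.38, adjusted p = 0.049, and 0.0915 without). The adjusted p of the others was at least 0.403 without the block. Of all tested miRNAs, 24.1% were called at 12 h with the block and 14.3% without it.

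Of the passenger arms, the strands opposite the guides, 10 were tested. By the mean over all 16 libraries, let-7d-3p (1170 CPM) and let-7e-3p (47.3 CPM) were the most abundant. let-7d-3p had 1033 ± 107 CPM at 12 h and 1179 ± 28.9 CPM at 0 h (log2 change -0.19, SE 0.15, adjusted p = 0.475), and let-7e-3p had 44.9 ± 3.66 CPM at 12 h and 40.3 ± 2.56 CPM at 0 h (0.16, adjusted p = 0.6). The lowest adjusted p of a passenger arm at 12 h was 0.0584, that of let-7a-2-3p (0.98, SE 0.32), which the replicate block called (adjusted p = 0.0286). let-7a-1-3p, named like let-7a-2-3p after its values were seen, was called at 12 h with the block only (-0.75, adjusted p = 0.038). It fell in the trend (-0.0669 per hour, SE 0.0197, adjusted p = 0.0164). Of all tested miRNAs, 24.1% were called at 12 h with the block, and 25.2% in the trend without it, 13.1% downward. Also chosen with their values known, the passenger arms of the called guides, let-7b-3p (0.25, SE 0.18, adjusted p = 0.416) and let-7i-3p (0.25, SE 0.18, adjusted p = 0.421), were not called at 12 h. let-7b-3p had 22.2 ± 0.144 CPM at 12 h and 18.7 ± 1.02 CPM at 0 h, beside the lower level of let-7b-5p from the same hairpin.

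Among 130 miRNAs outside the family with a mean of at least 100 CPM, those whose mean log2 level over the 8 times was most like that of the summed family were miR-221-3p (Pearson r = 0.80), miR-181a-5p (0.78) and miR-1839-5p (0.75). These are descriptions over 8 time means that share library scaling.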

How the data were processed

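Per the labels' protocols, 1000 ng of total RNA went into each TruSeq small RNA library. The authors deposited raw read counts per sequence class and miRNA in 1 table. Per the submitters' processing notes, CASAVA 1.8.0 was used. Not given in the sources used here are the aligner, the miRNA annotation and how reads matching several miRNAs were treated. The series' design text names 9 time points, of which 8 are analysed here.

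The total of a miRNA was the sum of 8 classes (reference, trimmed, and 3′- or 5′-extended, each with and without untemplated bases). From the table of 6511 entries, 1 duplicate and 3 entries without a class (7 reads) were left out, and 449 of 1167 miRNAs passed edgeR's filter (minimum count 10). Levels were tested with edgeR 4.0.16 (R 4.3.3, TMM factors 0.935 to 1.07, all 16 libraries in 1 fit, time as a factor or in hours), and changes over 0 h or per hour are on the log2 scale. Class shares were tested with edgeR as class reads against the other reads of the same miRNA, with a term for each library and at least 10 of each in 2 libraries. Calls had a Benjamini-Hochberg adjusted p under 0.05 over all miRNAs tested. limma 3.58.1 and DESeq2 1.42.0 served in alternatives, and limma in the tests relative to the members' mean (prior of 0.5 reads).

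Replicate numbers went with the header codes that are read here as sequencing runs. Deviations in level of same-numbered libraries from their time means correlated in all 28 pairs (r 0.134 to 0.602, median 0.286). The replicate number was therefore also fitted as a block. For the A-form share r was -0.0588 to 0.405 (median 0.214). P-values measure the spread between libraries of 2 experiments, and in trends also departures from a straight line. Those of trends within a single replicate measure the spread of its libraries about a line. They hold no replication between experiments. Intervals cover counting error only.

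The members and lists were chosen with earlier results of these data known. All 9 members are named, and outside the family the cluster partners, the 2 most abundant passenger arms and the 3 miRNAs most like the family's summed level, with the exceptions marked in the text.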

Additional observations from a re-analysis of the deposited data

How the results depend on the processing

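Libraries held 5852087 to 7783249 reads, and the limits lie in 2 libraries per time and in the counting error of class shares in the less abundant members. They also lie in a header code that moves with the replicate number, and in unresolved reads shared by paralogs. The counts of called members below are out of 9, or out of 5 for the U-form. Shares over all miRNAs were computed for the main fits, the block, single replicates and summed A-form and C-form reads. Counts under the other settings have no such share beside them and cannot be read as particular to the members.

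For levels, any change was called in 1 member; it was called in 0 with DESeq2 size factors, with total counts or with a mean of at least 10 CPM required, in 4 without the low-count filter and in 2 with the replicate block. At 12 h 2 members were called and 1 with total counts. Over all later times 3 calls were made, against 1 with total counts, 6 without the filter and 6 with the block. The level trend was called in 2 members, and in 1 with total counts or in replicate 2 alone. Relative to the family, 12 h calls numbered 1, or 2 with the block, and trend calls 3, or 1 without the filter and 4 with the block, for untrimmed reads or without replicate 2 of 2 h and 10 h.

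A-form calls without the block numbered 0. At 12 h they numbered 8 with the replicate block, with or without C-form reads added, and 2 with A-form and C-form reads summed. In the trend they numbered 8 with the block, in either replicate alone and with both forms summed, and 3 with reference reads as denominator. U-form calls numbered 0, at 12 h 2 with the block, and in the trend 3 with the block or with reference reads as denominator and 1 with at least 50 class reads or in either replicate alone. Trimmed calls at 12 h numbered 1, against 5 with the block and 2 with at least 50 reads. In the trend they numbered 5, against 3 without a filter. The causes were not tested.

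With each library left out in turn, calls ranged from 0 to 2 for any change and at 12 h, 0 to 6 over all later times, 2 to 3 in the level trend, and 0 to 1 and 1 to 4 relative to the family. They ranged from 0 to 0 and 0 to 1 for both A-form and U-form, 0 to 2 and 5 to 5 for trimmed reads, and, relative to the members' mean, 1 to 1 for the A-form and 4 to 5 for trimmed reads. The replicate block changed no other call that the text reports than those given here or beside the result.

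Changes of sign touched members that were not called. For let-7d-5p at 12 h (-0.00034) the log2 change was 0.0063 with DESeq2 size factors, 0.019 without the filter, 0.036 with at least 10 CPM, 0.00015 with limma-voom, 0.034 for untrimmed reads, 0.0021 with DESeq2's test, and 0.030 without replicate 2 of 2 h and 10 h. Total counts turned let-7a-5p (-0.065), let-7g-5p (-0.13) and miR-98-5p (-0.10) at 12 h and the slopes of let-7a-5p (-0.0028) and let-7d-5p (-0.0058). Slopes of miR-98-5p were 0.0043 for untrimmed reads, 0.0028 without replicate 2 of 2 h and 10 h and 0.0063 in replicate 2 alone, and of let-7g-5p 0.0058 without the same libraries and 0.0056 in replicate 1 alone. Single replicates also turned the level slopes of let-7a-5p (-0.0057 in replicate 1), let-7c-5p (0.0022) and let-7e-5p (0.00047, both in replicate 2). Replicate 1 alone turned those of the U-form in let-7g-5p (0.024) and miR-98-5p (0.0046) and of the trimmed share in let-7d-5p (-0.0037). With reference reads as denominator the trimmed share of let-7e-5p changed by 0.02 at 12 h and 0.0042 per hour.

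Single libraries left out turned level changes at 12 h in let-7a-5p (-5.1e-06 to 0.22), let-7d-5p (-0.064 to 0.10) and miR-98-5p (-0.042 to 0.20), and level slopes in let-7d-5p (-0.00083 to 0.014), let-7g-5p (-0.015 to 0.0061) and miR-98-5p (-0.0066 to 0.0084). They turned the slope of let-7d-5p in the family (-0.0093 to 0.00035), trimmed changes of let-7d-5p (-0.020 to 0.10) and let-7f-5p (-0.15 to 0.03) at 12 h, the U-form of let-7g-5p at 12 h (-0.70 to 0.36) and the A-form of let-7i-5p without the block (-0.20 to 0.38 at 12 h and -0.0028 to 0.016 per hour). Relative to the members' mean, the trimmed slopes of let-7e-5p (-0.0026 to 0.00052) and let-7f-5p (-0.0035 to 0.0020) turned.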

Other observations

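The let-7 names outside the family as defined here, let-7j and let-7k, held 3 to 13 and 1 to 7 reads per library, and neither was tested for change here.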
